A study of Mus musculus with 26 samples.

Results

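Comp, Prg4, Hapln1 and Cnmd, 4 genes that encode proteins of the cartilage and joint matrix, were followed across a mouse model of osteosarcoma, a malignant tumour of bone-forming cells. They were chosen as every probe set annotated to these symbols, with Lect1 as the older symbol of Cnmd, and are 4 of the 12887 genes tested. RNA was hybridised to 26 arrays. The control group was 3 cultures of wild-type primary osteoblasts, the bone-forming cells, differentiated in vitro. The other groups were 15 primary osteosarcomas, 4 osteosarcoma cell lines (numbered 176, 179, 182 and 213) and 4 secondary tumours (numbered 29, 64, 66 and 94). Secondary tumours 29, 64 and 94 are labelled as transplants, and number 66 as tumour tissue derived from a cell line, although its title calls it a cell line. The labels name neither the genotype nor the age of the tumour-bearing mice, nor the strain of any mouse. The letters OPflR before the numbers of the secondary tumours are not explained there. Whether each osteoblast culture had its own animal is not stated. Tests against the cultures therefore measure only the spread between these samples, which may be technical.

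Cartilage resists load because large aggregates of the proteoglycan aggrecan are held in a network of collagen II. Aggrecan binds hyaluronan, and link protein, the product of Hapln1, locks that bond. Comp encodes cartilage oligomeric matrix protein, a pentamer of the thrombospondin family that binds collagens in cartilage, tendon and ligament. Prg4 encodes lubricin, the lubricant of joint and tendon surfaces, and Cnmd encodes chondromodulin, a membrane glycoprotein of avascular cartilage that restrains vessel growth. SOX9 is the transcription factor that drives the cartilage programme. Osteosarcomas are tumours of bone-forming cells, and some hold areas of cartilage-like matrix.

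The cartilage genes behaved differently from one another across the groups. Comp was high in the osteoblast cultures and far lower in tumours and cell lines, with no called difference among the last 3 groups. Prg4 was highest in the cultures and was called lower in lines than in primary tumours. Its mean in secondary tumours lay between those of primary tumours and lines and was not called different from either. Hapln1 was not called different from the cultures in either kind of tumour, with a wide range in primary tumours, and was low in the cell lines. Cnmd was measured above the floor in the cultures only. The plot of levels on each array shows these patterns.

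**Figure D1:**
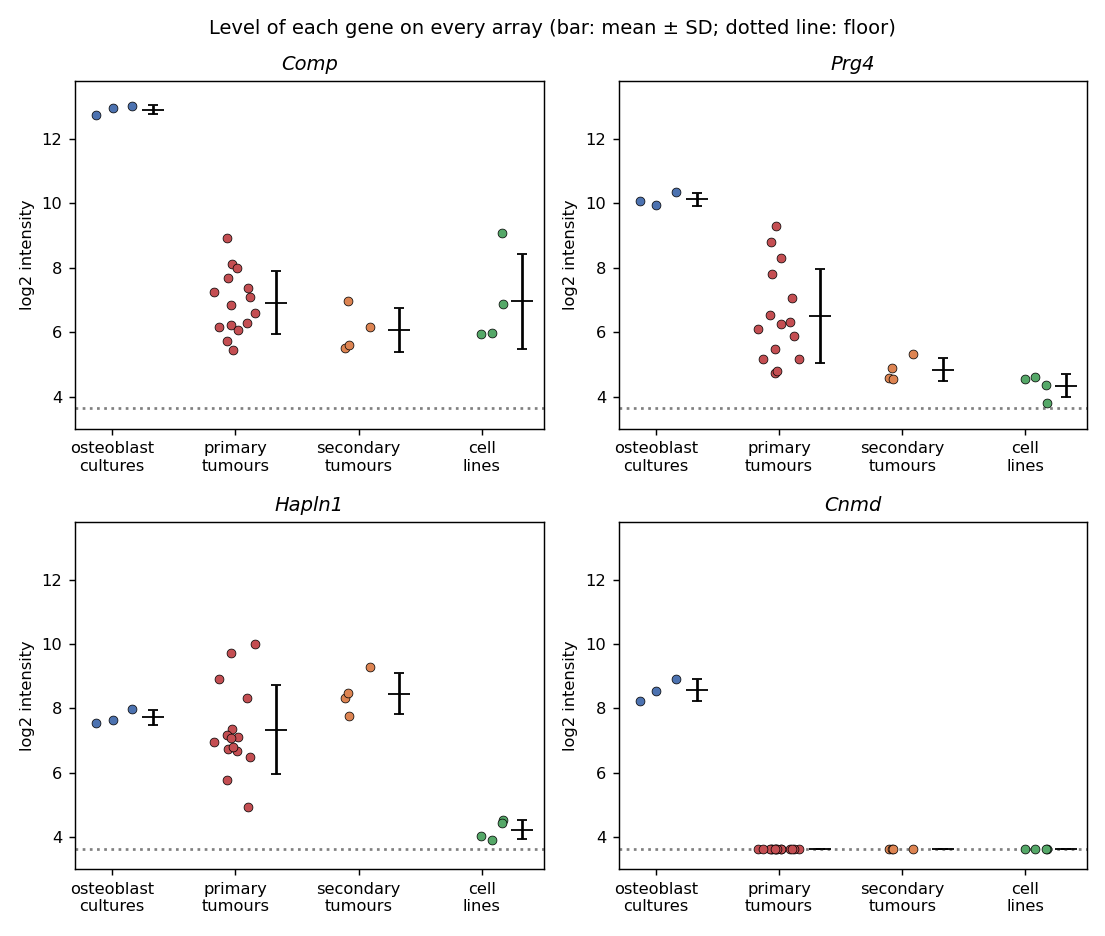
Log2 intensity of Comp, Prg4, Hapln1 and Cnmd on each of the 26 arrays (points), by group, with the group mean ± SD beside the points and the floor of 3.64 as a dotted line. Comp lies above 12 in the osteoblast cultures and below 10 elsewhere, Hapln1 is lowest in the cell lines, and Cnmd leaves the floor only in the osteoblast cultures.

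Each array gave 1 linear intensity for every probe set. Before testing, intensities under the overall 20th percentile (12.5) were set to that floor, and log2 was taken. Group values are means ± SD on the log2 scale, and errors of differences are the standard errors (SE) of limma, which pools the spread of all 4 groups. A gene was called where the p-value adjusted over all genes was below 0.05 and the fold at least 2. Array medians lay between 44.4 and 58.8. The ratio of the hybridisation controls bioB and bioC was 1.16 to 1.28 on the cell line arrays and 1.18 to 1.23 on 8 primary tumour arrays. It was 0.418 to 0.436 on the other 7 primary tumour arrays, 0.429 to 0.46 on the secondary tumour arrays and 0.506 to 0.522 on the osteoblast arrays. No other group overlapped the osteoblast arrays in this ratio, so the ratio and the group cannot be told apart in comparisons with them. The Gapdh 5′ to 3′ ratio, which falls in degraded RNA, was 0.656 to 1.03 in primary tumours and 0.839 to 1.08 in the other groups together. It was 0.909 to 1.03 in the 8 primary tumours of high bioB to bioC ratio and 0.656 to 0.845 in the other 7. Each secondary tumour lay above the primary tumour of its number in the Gapdh ratio. The part of this ratio in the differences was not tested. In tissue, fewer cells of a type and less RNA per cell cannot be told apart.

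The osteoblast label was checked against marker genes. The bone matrix genes Col1a1 and Ibsp were at 13.88 ± 0.06 and 12.25 ± 0.09 in the cultures (SD, n = 3), and the osteoblast transcription factor gene Sp7 at 8.53 ± 0.20. Of 8 measured osteoblast markers, Sp7, Alpl and Pth1r were called higher in primary tumours than in the cultures (by 1.67, 2.11 and 1.55) and in secondary tumours (by 2.06, 2.37 and 1.28), and Phex was called lower in both. In lines 3 were called lower (Ibsp, Dmp1 and Phex) and none higher. Against the cultures, 6.58% of all genes were called higher and 11.9% lower in primary tumours. The shares were 1.58% and 6.64% in lines, and 7.71% and 10.8% in secondary tumours. The same cultures also carried genes of other cell types. All 6 measured adipocyte markers were called lower in each other group than in the cultures, among them Adipoq and Fabp4, at 12.79 ± 0.05 and 13.37 ± 0.04 in the cultures. The mean of these 6 markers was 11.47 to 11.52 on the osteoblast arrays and 5.25 to 7.56 on all others, and Pparg was at the floor on every primary tumour array. The part of fat-like cells in the levels of the cartilage genes was not tested. Of the 8 measured chondrocyte markers, Col2a1 was at 9.58 in the cultures and Sox9 at 8.76, and the other 6 (Sox5, Sox6, Acan, Col9a1, Col11a2 and Matn3) lay between 4.79 and 6.91, while Matn1 and Col10a1 failed the filter on low values, with highest osteoblast intensities of 24.4 and 26.6.

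Comp was read by probe set 1419527_at. Its intensity was 8006, 8326 and 6850 in osteoblast cultures 1, 2 and 3. In the cell lines 176, 179, 182 and 213 it was 61.1, 117, 536 and 62.3. In the primary tumours it ran from 43.2 to 486 with a median of 114, and in secondary tumours 29, 64, 66 and 94 it was 45.2, 126, 72.2 and 48.6. Every osteoblast culture lay above every other array, and the other groups overlapped each other. On the log2 scale the group means were 12.91 ± 0.15 in cultures (n = 3), 6.96 ± 1.47 in lines (n = 4), 6.92 ± 0.98 in primary tumours (n = 15) and 6.06 ± 0.68 in secondary tumours (n = 4). Line 182 stood above the other lines.

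Prg4 was read by probe set 1449824_at. The osteoblast cultures 1, 2 and 3 gave intensities of 988, 1301 and 1084. Primary tumours ran from 26.7 to 626 with a median of 76.6. Secondary tumours 29, 64, 66 and 94 gave 23.9, 29.6, 39.6 and 23.2. Secondary tumours 29 and 94 lay below every primary tumour, and the other two lay among the lowest of them. The lines 176, 179, 182 and 213 gave 23.2, 14.1, 20.5 and 24.3, all below every primary tumour. Group means on the log2 scale were 10.13 ± 0.20 in cultures, 6.51 ± 1.46 in primary tumours, 4.83 ± 0.36 in secondary tumours and 4.33 ± 0.36 in lines.

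Hapln1 was read by 4 probe sets, of which 1438020_at had the highest mean and stands for the gene. Its intensity was 198, 255 and 186 in osteoblast cultures 1, 2 and 3. Primary tumours ran from 30.6 to 1031 with a median of 135. Secondary tumours 29, 64, 66 and 94 gave 321, 359, 624 and 216. The range of the primary tumours took in all cultures and all secondary tumours. In lines 176, 179, 182 and 213 the intensity was 16.4, 23.3, 21.8 and 15.2, below every other array. Group means on the log2 scale were 8.46 ± 0.63 in secondary tumours, 7.72 ± 0.24 in cultures, 7.34 ± 1.38 in primary tumours and 4.24 ± 0.30 in lines.

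Cnmd was read by probe set 1460258_at. The osteoblast cultures 1, 2 and 3 gave intensities of 374, 487 and 302, or 8.57 ± 0.35 on the log2 scale. All 15 primary tumours, 4 secondary tumours and 4 lines were under the floor, with deposited intensities of 2.37 to 11.7, 3.98 to 5.96 and 9.03 to 12.4. Cnmd therefore passed the filter on low values only through the cultures and had to differ from them. All 7 probe sets of the 4 genes passed that filter.

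RefSeq bases upstream of the gene model, in assembly GRCm38.p6, were at hand for Hapln1 and Cnmd, which are 2 of the 4 genes. They are shown as sequence, 5′ to 3′ on the strand of each gene. Hapln1 was called lower in the cell lines than in each other group, and Cnmd was measured above the floor in the cultures only. The Hapln1 window is chr13:89540386-89540528 on the plus strand, 143 bases, and the Cnmd window is chr14:79662195-79662433 on the minus strand, 239 bases.
Hapln1: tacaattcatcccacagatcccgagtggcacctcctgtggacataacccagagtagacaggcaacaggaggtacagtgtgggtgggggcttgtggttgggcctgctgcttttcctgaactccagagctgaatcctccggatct
Cnmd: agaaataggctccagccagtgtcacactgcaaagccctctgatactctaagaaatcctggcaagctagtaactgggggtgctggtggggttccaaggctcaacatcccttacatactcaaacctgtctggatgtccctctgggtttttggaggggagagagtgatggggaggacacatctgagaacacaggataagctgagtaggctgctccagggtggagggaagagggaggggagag
Both windows had similar base composition, with 55.2% and 53.6% G and C. They held 2 and 0 CpG dinucleotides. Neither window held AACAAT or ACAAAG, core letters bound by SOX factors, on either strand. Among 32851 promoters cut to the length of the Hapln1 window, 6.09% held the first and 9.92% the second, and at the length of the Cnmd window 9.2% and 15.9%. The absence of these letters says nothing about binding elsewhere.

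In primary tumours against osteoblast cultures, 2 of the 3 genes whose call the filter had not fixed were called, both lower, where 18.5% of all genes were called in either direction and 11.9% lower. Comp fell by 6.0 on the log2 scale (SE 0.588, limma adjusted p 1.93e-08), a 63.8-fold difference, and Prg4 fell by 3.61 (SE 0.701, limma adjusted p 0.000212), or 12.2-fold. Cnmd, kept only through the cultures and so not counted, was at least 30.5-fold lower. Its limma p is not given, because values at the floor carry no spread. Hapln1 differed by -0.38 (SE 0.675, 95% interval -1.77 to 1.01, limma adjusted p 0.668), which is within the spread of the tumours. Its other probe sets lay lower, at -1.20 (1421633_a_at, limma adjusted p 0.164), -0.84 (1426294_at) and -0.75 (1426295_at). None of them was called, where 20.5% of the kept probe sets were called. The median difference of all genes was -0.07.

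In the cell lines Comp, Prg4 and Hapln1, all 3 of the genes whose call the filter had not fixed, were called lower than in the cultures, where 8.22% of all genes were called in either direction and 6.64% lower. Comp fell by 5.95 (SE 0.711, limma adjusted p 1.69e-06). Without line 182, whose Comp was the highest, the difference was -6.66. Prg4 fell by 5.80 (SE 0.847, limma adjusted p 3.18e-05) and Hapln1 by 3.49 (SE 0.815, limma adjusted p 0.00434), while Cnmd was again at least 30.5-fold lower. The fall of Hapln1 was -2.93 with the hybridisation-control class as a covariate, where the limma adjusted p was 0.0505 and the call was lost. All 4 Hapln1 probe sets were called lower in the lines, where 6.38% of the kept probe sets were called lower. Probe set 1426294_at differed by -3.89. Probe set 1421633_a_at, at the floor in 3 of 4 lines, differed by -3.54, which understates its change, and 1426295_at, at the floor in all 4, was at least 7.95-fold lower.

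In secondary tumours 2 of the 3 genes whose call the filter had not fixed were called lower than in the cultures, where 18.5% of all genes were called in either direction and 10.8% lower. Comp fell by 6.85 (SE 0.711, limma adjusted p 9.06e-08), or 115-fold. Prg4 fell by 5.30 (SE 0.847, limma adjusted p 4.28e-05), and Cnmd was at least 30.5-fold lower. Hapln1, the link protein gene, was at 0.74 (SE 0.815, 95% interval -0.94 to 2.42, limma adjusted p 0.506) and was not called. Its other probe sets lay nearer to no change, at 0.02 (1421633_a_at), 0.39 (1426294_at) and 0.56 (1426295_at). None of them was called, where 20.7% of the kept probe sets were called. These 3 comparisons share the osteoblast cultures, so their values are given side by side only. The plot of differences between groups sets them next to those among tumours and lines.

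**Figure D2:**
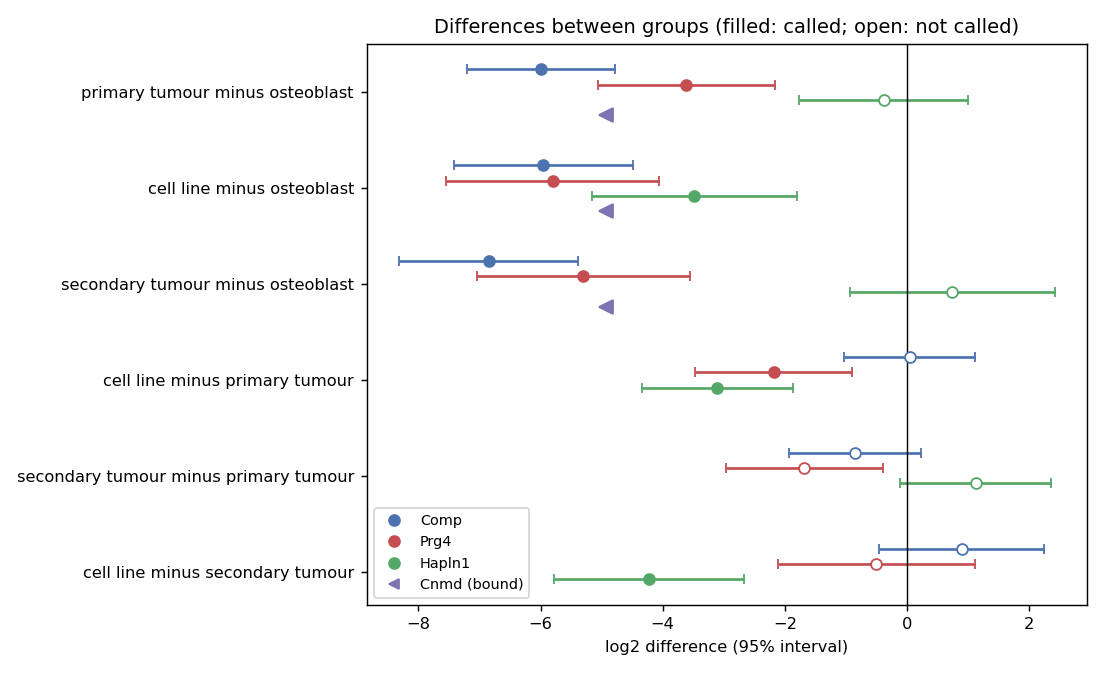
Log2 difference of each gene in each of the 6 comparisons, with its 95% interval; filled points were called and open points were not, and triangles mark Cnmd, for which the difference is a bound. Comp, Prg4 and Cnmd lie left of 0 in each comparison with osteoblasts, and Hapln1 has a filled point left of 0 in the 3 comparisons that involve cell lines.

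Among tumours and lines, Hapln1 and Prg4 separated the cell lines from the primary tumours, and 2 of the 4 genes were called lower in the lines, where 11.7% of all genes were called, 7.03% lower and 4.72% higher. Hapln1 fell by 3.10 (SE 0.60, limma adjusted p 0.000310), or 8.59-fold, and Prg4 fell by 2.18 (SE 0.624, limma adjusted p 0.00811), or 4.54-fold. Neither gene overlapped between the groups, but the share of all genes without such overlap was not counted. The other 3 Hapln1 probe sets were also called lower, where 8.28% of the kept probe sets were called lower. They differed by -3.05 (1426294_at), by -2.34 with 3 of 4 lines at the floor (1421633_a_at) and, with all 4 lines at the floor, by at least 4.72-fold (1426295_at). All lines belong to the class of arrays with the high control ratio. Against the 8 primary tumours of that class the differences were -2.84 for Hapln1 and -2.10 for Prg4 (limma adjusted p 0.000457 and 0.00459). With the floor at the 40th percentile Prg4 differed by -1.50 and was not called (limma adjusted p 0.0508). Comp differed by 0.04 (SE 0.524, 95% interval -1.04 to 1.12) and Cnmd was at the floor on both sides, so no fold is given. In the same comparison all 10 macrophage markers and 6 of 9 endothelial markers were called lower in the lines. Among them C1qa, C1qb, C1qc, Cd68, Ctss, Esam and Cldn5 were above the filter level on tumour arrays only, so their calls were favoured in advance. The macrophage mean was 8.67 to 10.85 on primary tumour arrays and 5.17 to 5.49 on line arrays, and the part of these cells in the differences was not tested.

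Between lines and secondary tumours, Hapln1 alone of the 4 genes was called, where 13.2% of all genes were called, 8.40% lower and 4.77% higher. It fell by 4.23 (SE 0.754, limma adjusted p 0.000261), an 18.7-fold difference. The groups did not overlap in Hapln1, but the share of all genes without such overlap was not counted. Probe set 1426294_at differed by -4.28, 1421633_a_at by -3.56 with 3 of 4 lines at the floor, and 1426295_at, at the floor in all 4 lines, was at least 11.8-fold lower. Prg4 differed by -0.50 (SE 0.784, 95% interval -2.12 to 1.11) and Comp by 0.90 (SE 0.658, 95% interval -0.46 to 2.25), while Cnmd was at the floor on both sides. Without line 182 the Comp difference was 0.19. Lines and secondary tumours lie in different control classes. With the class as a covariate, which the primary tumours of both classes allow, the Hapln1 difference was -3.67 (limma adjusted p 0.0131). The 10 macrophage markers were called lower in the lines here too, with the same limit from the filter for C1qa, C1qb, C1qc, Cd68 and Ctss.

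Between secondary and primary tumours none of the 4 genes was called, where 0.00776% of all genes (1 gene) were called. Prg4 differed by -1.68 (SE 0.624, 95% interval -2.97 to -0.40) at an unadjusted limma p of 0.0123 and an adjusted p of 0.448. Comp was at -0.85 (SE 0.524, adjusted p 0.604) and Hapln1 at 1.12 (SE 0.60, adjusted p 0.561), both by limma. Against the 8 primary tumours of the high control ratio alone, Prg4 differed by -1.60 with a limma adjusted p of 0.0497 and was called. Against the 7 of the low ratio, the class of the secondary tumours, it differed by -1.78 with a limma adjusted p of 0.547. The mean of the skeletal muscle markers, which was 4.78 to 11.25 in primary tumours, was 4.62 to 5.02 in secondary tumours and 4.60 to 4.74 in the cultures. On the line arrays this muscle mean was 4.98 to 8.81. Its part in the difference of Prg4 was not tested.

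The order of levels can be read from these tests. For Comp the cultures were highest, and lines, primary and secondary tumours did not differ beyond their spread. For Prg4 the cultures stood above primary tumours, and primary tumours above lines, while secondary tumours were not separated from either neighbour. For Hapln1 secondary tumours, cultures and primary tumours were not separated, and the lines were below all 3. The call of Hapln1 between lines and cultures was lost with the control class as a covariate. For Cnmd the cultures were above the other groups, which have no order at the floor.

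Some primary tumours share a label number with a secondary tumour (29, 64, 66 and 94) or with a cell line (176, 179 and 182). From primary to secondary tumour, Comp moved by -2.62, -0.14, -0.03 and -1.64 in numbers 29, 64, 66 and 94. It was lower in 4 of 4 pairs, and its mean difference of -1.11 ± 1.25 (SD) had an exact two-sided sign-flip permutation p of 0.125, the smallest that 4 pairs allow. Prg4 moved by -4.71, -0.98, 0.57 and -1.58 in the same order, lower in 3 of 4 pairs (exact permutation p 0.25). Hapln1 moved by 0.97, 1.99, -0.45 and 0.78, higher in 3 of 4 pairs (exact permutation p 0.25). The fall of Prg4 in number 29 was the largest of these changes.

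From primary tumour to cell line, Hapln1 moved by -4.29, -2.13 and -2.30 in numbers 176, 179 and 182, and Prg4 by -1.78, -4.50 and -3.44. Both were lower in 3 of 3 lines, with means of -2.91 ± 1.20 and -3.24 ± 1.37 (SD) and an exact two-sided sign-flip permutation p of 0.25, the smallest that 3 pairs allow. Comp moved by -0.34 and -1.13 in numbers 176 and 179 and by 1.38 in number 182. The change of Hapln1 in these lines differed from its change in the secondary tumours by -3.73 (SE 0.669, limma adjusted p 0.0169), in a test with the label number as a block in which 6.97% of all genes were called. None of these lines resembled its own-numbered primary tumour best. Whether they derive from those tumours is not stated, and this likeness cannot decide it.

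**Figure D3:**
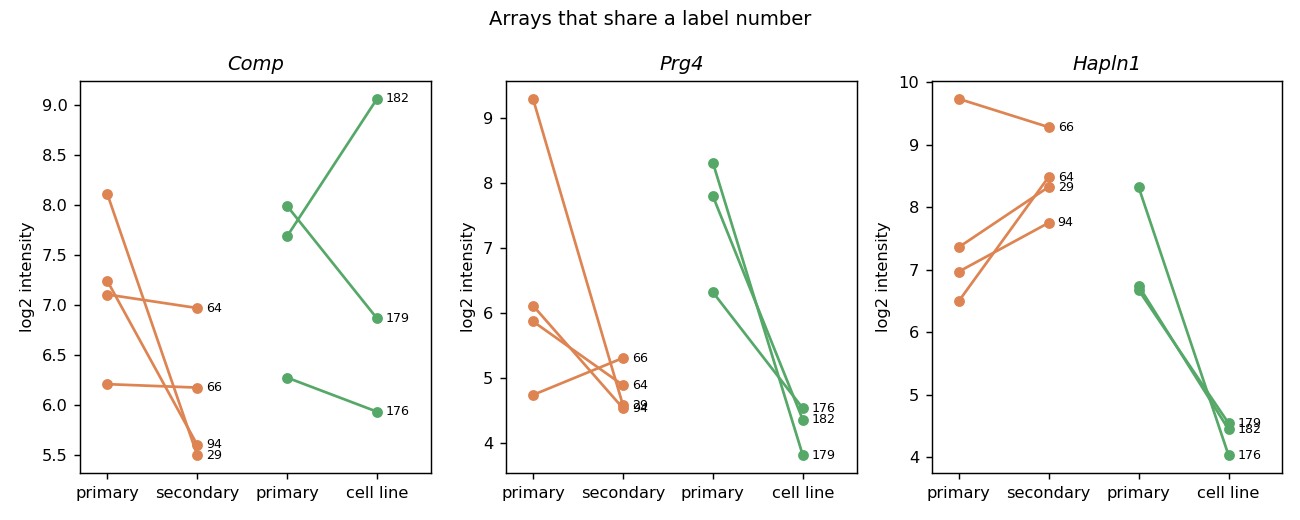
Log2 intensity of Comp, Prg4 and Hapln1 in arrays that share a label number, joined by a line from the primary tumour to the secondary tumour (orange) or the cell line (green). Hapln1 and Prg4 are lower in all 3 lines, Hapln1 is higher in 3 of 4 secondary tumours, and Comp is higher in line 182 and lower in the other two lines.

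The primary tumours varied widely in the 3 measurable genes. Prg4 spanned 626 to 26.7 in intensity and Comp 486 to 43.2. Tumours 12, 29, 179 and 182 held the highest values of both, with Prg4 at 448, 626, 318 and 222 and Comp at 486, 277, 255 and 207. Hapln1 was highest elsewhere, at 1031, 854, 479 and 321 in tumours 119, 66, 331 and 176, and lowest in tumour 183 at 30.6.

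Over the 15 primary tumours Comp and Prg4 rose together (Pearson r 0.826, permutation p 0.00011, adjusted p 0.00067 over 9 relations; Spearman rho 0.714, permutation p 0.00357, adjusted p 0.0118). Without tumours 12 and 330, the farthest from the median of Comp, r was 0.75, and it was 0.826 in the 8 tumours of the high control ratio and 0.861 in the 7 of the low ratio. Hapln1 had coefficients below 0 with both, and neither passed the adjustment. Its r was -0.464 with Comp (permutation p 0.0809, adjusted p 0.0910; rho -0.500, permutation p 0.0610, adjusted p 0.0784) and -0.533 with Prg4 (permutation p 0.0398, adjusted p 0.0512; rho -0.479, permutation p 0.0726, adjusted p 0.0816). Without the 2 tumours farthest from the median these were -0.489 and -0.577. Within the control classes they were -0.451 and -0.630 with Comp, and -0.431 and -0.638 with Prg4.

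Marker genes of skeletal muscle varied with Comp and Prg4 in the same tumours. The relations with muscle and adipocyte markers were not planned, and were adjusted together with the planned ones among the members. The other marker lists were not set against the members, and the adjustment does not cover this choice of lists. In primary tumours 8 of 9 muscle markers were called higher than in the cultures, beside 6.58% of all genes. Among them Myh2 passed the filter on low values only through the primary tumours, so its call was favoured in advance. In the cultures Myh4 and Tnnc2 were at the floor. The mean of the 9 markers had r 0.831 with Prg4 (permutation p 0.00015, adjusted p 0.00067; rho 0.814, permutation p 0.00042, adjusted p 0.00378) and r 0.671 with Comp (permutation p 0.00697, adjusted p 0.0105; rho 0.629, permutation p 0.0145, adjusted p 0.0217). Leaving out the 2 farthest tumours gave 0.747 and 0.520, and the classes gave 0.774 and 0.888 for Prg4 and 0.586 and 0.736 for Comp. Tumours 12, 29, 179 and 182, the highest in Comp and Prg4, had muscle means of 11.12, 11.25, 11.00 and 10.49, the highest of the 15. Tumour 183 held Prg4 at 133 with a muscle mean of 5.57. In the cell lines, which these relations do not cover, the muscle mean was 4.98 to 8.81 and Prg4 was 14.1 to 24.3. With Hapln1 the muscle mean had r -0.329 (permutation p 0.233, adjusted p 0.233; rho -0.286, permutation p 0.301, adjusted p 0.301), which was 0.03 without tumours 119 and 66, and 0.159 and -0.791 in the classes.

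The mean of the 6 adipocyte markers gave a like picture. Its r was 0.786 with Prg4 (permutation p 0.00039, adjusted p 0.00117; rho 0.711, permutation p 0.00393, adjusted p 0.0118), 0.737 with Comp (permutation p 0.00154, adjusted p 0.00346; rho 0.650, permutation p 0.0103, adjusted p 0.0186) and -0.681 with Hapln1 (permutation p 0.00528, adjusted p 0.0095; rho -0.682, permutation p 0.00667, adjusted p 0.0150). Without the 2 farthest tumours these were 0.650, 0.617 and -0.505. In the high and low control classes they were 0.889 and 0.780, 0.910 and 0.655, and -0.569 and -0.901. The part of muscle or fat tissue in the tumour samples in these relations was not tested. Neither was the relation between the adipocyte and muscle means. The plot of the primary tumours shows the 4 tumours with the most muscle signal at the upper right of the Comp and Prg4 panel.

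**Figure D4:**
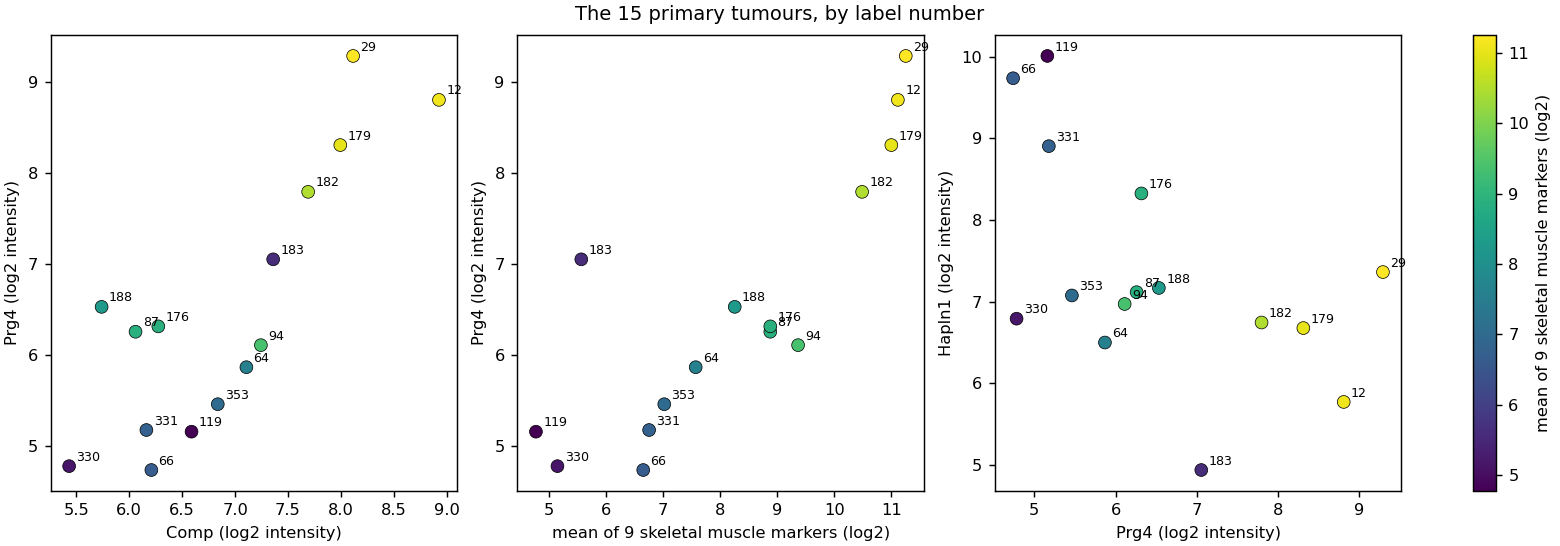
The 15 primary tumours, numbered as in the labels and coloured by the mean log2 level of 9 skeletal muscle markers: Prg4 against Comp, Prg4 against the muscle mean, and Hapln1 against Prg4, all in log2 intensity. Tumours 12, 29, 179 and 182 are high in Comp, Prg4 and muscle markers, and tumours 119, 66 and 331 are high in Hapln1.

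The 4 probe sets of Hapln1 varied together, with Pearson r of 0.945 to 0.989 for their 6 pairs over 26 arrays and 0.940 to 0.987 over the 15 primary tumours. They share the same RNA and arrays, so this describes the reading of the gene and is no replication. Each of them ranked the groups alike in placing the lines lowest. Probe set 1426295_at was at the floor in all 4 lines and 1421633_a_at in 3 of them.

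The genes most like each member, by Pearson r of log2 intensity over all 26 arrays, were Gstt2, Myh11 and Ddit4l for Comp (0.932, 0.931 and 0.919). Myh11 encodes the smooth muscle myosin heavy chain. For Prg4 they were Chchd10, Cd36 and Pdk2 (0.920, 0.892 and 0.862), of which Cd36 encodes a fatty acid transporter that is also one of the adipocyte markers. For Hapln1 they were Reck, Pheta2 and Wwox (0.827, 0.807 and 0.780), where Reck encodes a membrane-anchored inhibitor of matrix metalloproteinases. For Cnmd they were Hoxc10, Ankef1 and Kera (0.998, 0.996 and 0.995), and Kera encodes keratocan, a small proteoglycan of cornea and tendon. With Cnmd at the floor on 23 of 26 arrays, its coefficients rest on the 3 cultures. Over the 15 primary tumours alone, Comp was most like Dmd, Mylk4 and Pvalb (0.894, 0.885 and 0.862), Prg4 like Chchd10, Pgam2 and Myom1 (0.962, 0.958 and 0.952) and Hapln1 like Ces4a, Slc22a15 and Cpne2 (0.835, 0.785 and 0.784). Dmd, Pvalb, Pgam2 and Myom1 are genes of the muscle fibre. These are descriptions with no test, and arrays share their group differences.

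Of 104 other genes of cartilage, joint and tendon matrix, signalling and transcription, 90 were measured. Among them Kera passed the filter on low values only through the cultures, which fixed its lower calls against them. Against the cultures, 9 were called higher and 26 lower in primary tumours (6.58% of all genes higher and 11.9% lower), 0 and 24 in lines (1.58% and 6.64%), and 9 and 27 in secondary tumours (7.71% and 10.8%). The median difference of the 90 genes was -0.28, -0.95 and -0.15 in that order, beside -0.07, -0.10 and -0.02 for all genes. Lines against primary tumours gave 7 higher and 20 lower (4.72% and 7.03% of all genes). Lines against secondary tumours gave 5 and 17 (4.77% and 8.40%), and secondary against primary tumours 0 and 0 (0.00776% and 0%).

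Sox9 and Col2a1, the regulator and the main collagen of cartilage, were called lower than in the cultures in all 3 other groups, as Comp was. Sox9 was at 8.76 in the cultures and differed by -2.81 in primary tumours, -2.06 in lines and -2.54 in secondary tumours (limma adjusted p 6.87e-05, 0.0189 and 0.00194). Col2a1 differed by -1.99, -2.59 and -1.79 from its level of 9.58 in the cultures (limma adjusted p 9.68e-06, 1.53e-05 and 0.000452). Other chondrocyte markers differed in direction. Sox5, a partner of SOX9, was called higher in primary tumours than in the cultures (1.23, limma adjusted p 7.20e-05), and Sox6 was called lower in lines (-1.54, limma adjusted p 0.0479). The median difference of the 8 markers was 0.41 in primary tumours, -1.42 in lines and 0.65 in secondary tumours. Acan, the gene of aggrecan and partner of link protein, had another pattern. It was at 6.49 in cultures, 7.56 in primary tumours, 8.5 in secondary tumours and 5.08 in lines. Its level was called higher in secondary tumours than in cultures (2.02, SE 0.655, limma adjusted p 0.0189), and lower in lines than in primary tumours (-2.48, SE 0.482) and than in secondary tumours (-3.42, SE 0.606), with limma adjusted p of 0.000327 and 0.000245. As for Hapln1, the lines had the lowest group mean.

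The shares of all genes called lower than in the cultures were 11.9% in primary tumours, 6.64% in lines and 10.8% in secondary tumours. Of 8 measured genes of accessory cartilage matrix proteins, 3 were called lower in each comparison with cultures and none was called higher. They were Otor, Cilp and Mia, with differences of -5.29, -3.89 and -2.82 in primary tumours, -5.95, -4.2 and -2.01 in lines and -6.06, -5.10 and -2.77 in secondary tumours. Otor was at the floor in 6 of 15 primary tumours, 3 of 4 lines and 3 of 4 secondary tumours, so its differences understate the change. Of 13 genes of the joint lining and superficial zone, 6, 7 and 7 were called lower in primary tumours, lines and secondary tumours, and none was called higher. Abi3bp led them, at -6.13, -4.82 and -6.53. Of 14 tendon and ligament genes, 7, 5 and 5 were called lower and 0, 0 and 1 higher. The lower calls include Kera, whose call the filter had fixed. Kera, which like Cnmd passed the filter only through the cultures, was at the floor in all lines and secondary tumours, at least 18.3-fold lower than in the cultures, and in 12 of 15 primary tumours, where it was no higher than 4.19.

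Thbs1 and Thbs4 belong to the thrombospondin family with Comp. Thbs1, which acts on vessels and growth factor activation, differed by -4.67, -2.71 and -4.59 in primary tumours, lines and secondary tumours against the cultures. Thbs4, a matrix protein of tendon and muscle, was at 12.33 in cultures, 12.34 in primary tumours and 13.08 in secondary tumours and fell to 9.30 in lines, where it was called lower than in each of the other groups. Of 11 measured growth plate signalling genes, 5 were called higher in primary tumours, 4 in secondary tumours and 0 in lines, where 6.58%, 7.71% and 1.58% of all genes were called higher. They were led by Bmp2 (3.27 and 2.98) and Fgfr3 (2.09 and 2.45).

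**Figure D5:**
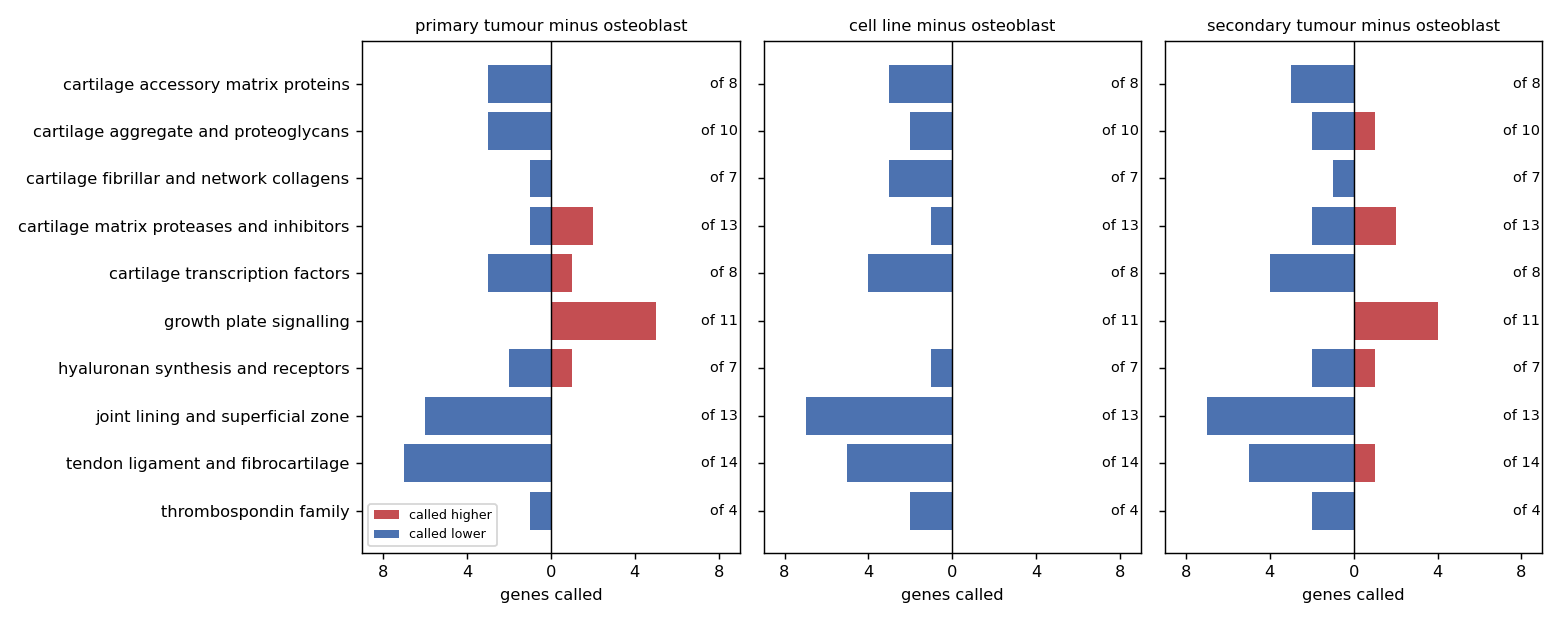
Number of genes called higher (right) or lower (left) than in the osteoblast cultures in each list of cartilage, joint and tendon genes, with the number of measured genes at the right edge of each panel. Joint lining and tendon lists hold mostly lower calls, and growth plate signalling holds only higher calls, in tumours.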

How the data were processed

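The deposited values are linear intensities, 1 per probe set and array, for 45101 probe sets on 26 arrays. Per the labels' protocols, RNA was copied from its poly(A) end into biotin-labelled cRNA. The background correction, probe summary and array scaling that the authors used were not given in the sources used here. For arrays their number limits the precision. Symbols came from the platform annotation, updated by gene identifier through RefSeq.

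The deposited intensities were floored at the 20th percentile and taken to log2. Probe sets with at least 3 arrays above the median of all values (52.6) were kept, and a gene is its kept probe set of highest mean. Differences were tested with limma 3.58.1 in R 4.3.3, with 4 groups, all 26 arrays and Benjamini-Hochberg adjustment over 12887 genes. Correlation p-values used 100000 permutations. Deviations from group means correlated at 0.224 to 0.642 between the 4 secondary tumours and the primary tumours of the same label number, each best with its own, so these were taken as pairs. For the 3 lines the correlations were 0.035 to 0.081, and none was best with its own. Whether these lines derive from those tumours is not stated. Arrays were classed by a bioB to bioC ratio above or below 0.6.

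Alternatives changed floor, filter, scaling, probe set rule, array weights, arrays fitted, replicate block and control class, and left out each array. Scripts were tested on simulated data. Genes named are the 4 members, Sox9, Col2a1, Acan, and at most 3 called genes of largest difference per list and comparison. Likeness used the 3 highest r. Marker genes and single tumours named beside them were chosen after their values were seen. The members and lists were chosen with earlier results of these data known.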

Additional observations from a re-analysis of the deposited data

Results flagged for a closer look

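The change of Hapln1 from the primary tumour of the same label number differed between lines and secondary tumours. It was -2.91 in the 3 numbers with a line and 0.82 in the 4 numbers with a secondary tumour, a difference of -3.73 on the log2 scale (SE 0.669, limma adjusted p 0.0169 over 12887 genes, 14 arrays with the label number as a block). Of all genes 6.97% were called in this test, which was added after the data were seen. Each of the 3 lines was lower than its primary tumour and 3 of 4 secondary tumours were higher. The same test gave 1.08 for Comp (limma adjusted p 0.405) and -1.56 for Prg4 (limma adjusted p 0.423).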

How the results depend on the processing

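The 21 differences of the 4 genes gave 571 values under alternatives, of which 558 kept direction and side of the threshold. Prg4 in lines against primary tumours was -1.50 with the floor at the 40th percentile, leaving 1 member called. Hapln1 in lines against osteoblasts was -2.93 with the control class as a covariate. Prg4 in secondary against primary tumours was -1.60 against the high class alone, making 1 member called. Comp in lines against primary tumours, near 0, turned to -0.021 with the label number as a random replicate block, -0.030 as a fixed replicate block and -0.22 against the low class alone, and ranged from -0.66 (without line 182) to 0.38 when 1 array was left out. The replicate block changed no other direction and no call of the members. With the fixed block Prg4 and Hapln1 in lines were -3.24 and -2.91 (limma adjusted p 0.0313 and 0.00616), and in secondary tumours -1.67 and 0.82. The block with the pairs of secondary and primary tumours called 4 genes in place of 1. The lines share a label number with primary tumours, but their origin from them is not stated, and none of the 3 correlated best with its own.

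Among correlations, Prg4 with Hapln1 was -0.563 under quantile normalization (adjusted permutation p 0.0373) and ranged from -0.630 to -0.449 when 1 tumour was left out, passing the threshold without 29, 64, 183, 330 or 353. Comp with Hapln1 ranged from -0.565 (without 330, where it passed) to -0.366, Hapln1 with the muscle mean from -0.589 (without 183, where it passed) to -0.129, and Hapln1 with the adipocyte mean from -0.770 to -0.563 (without 119, where it no longer passed).

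Counts moved by over 1.5 times when 22998 kept probe sets were tested in place of 12887 genes, while the shares called moved less (20.5% in place of 18.5% in primary tumours against osteoblasts, 7.95% in place of 8.22% in lines): 4707, 1829 and 4751 in place of 2378, 1059 and 2381 in primary tumours, lines and secondary tumours against osteoblasts, 3042 and 3458 in place of 1514 and 1697 in lines against primary and secondary tumours, and 2 in place of 1 in secondary against primary tumours. The last count was 2 with those groups alone, 251 against the high class and 9 against the low class. With the class as a covariate, lines against secondary tumours gave 811. The share of calls that were higher in lines was 19.2% against osteoblasts and 36.2% against secondary tumours; it was 30.4% and 51.7% with quantile normalization and 34.9% and 52.8% with a common 75th percentile. These moved the median of all genes from -0.10 to 0.06 and 0.07, and from -0.07 to 0.07 and 0.08. The causes were not tested.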
